A study of Mus musculus with 11 samples.

Results

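The data described here are ST18 ChIP and input reads at the promoters of 39 genes of the Wnt pathway: the 19 Wnt ligands, the ligand-modifying enzyme gene Porcn, 5 secreted antagonists and 14 signal transducers, with the Frizzled receptors kept apart. The genes were listed by name and role. The rule used no measured value, but the list was chosen with earlier results of these data known. All 39 were found among the 21881 promoters of the deposited table, and none was lost to a filter. The ChIP samples, 2 in number, and the 1 input sample came from cultured mouse cells that the labels call TN, and the ChIP used an antibody to the HA tag, with ST18 as the named target. No treatment, allele or time is given for TN cells, and every sample carries the growth protocol of the electroporated embryos. The table has 1 ST18 column, which does not say whether it holds 1 or both ChIP samples, and 1 input column, so no value has a replicate. The molecule label of the input sample is the same as that of the ChIP samples, and its input status rests on the title and the description. The series also includes 4 RNA samples with an ST18 knockdown and 4 control RNA samples, which were not analysed here. A table of promoter reads holds no marker expression, so the identity of the TN cells was not checked.

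Wnt proteins are secreted glycoproteins that the acyltransferase Porcupine lipidates before release. At the receiving cell they bind a Frizzled receptor, often with the co-receptors LRP5 or LRP6, and engage Dishevelled. This stalls the complex of APC, Axin and GSK3 that otherwise marks β-catenin for degradation, and β-catenin then acts with TCF/LEF factors on target genes. In the developing cortex Wnt signals from the dorsal midline pattern the tissue and act on the choice between progenitor division and neuron formation. ST18 is a zinc finger protein of the MYT1 family, whose members bind a short AT-rich motif written AAAGTTT.

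Each promoter is a window of 1000 bp, and the place of the window around the transcription start is not stated. Summed over the table there were 438960 ST18 reads and 160443 input reads, a ratio of 2.74. The median window held 20 ST18 reads and 7 input reads, and the median over the 39 Wnt promoters was 22 and 8. Every value below is therefore a small count. The deposited log2 enrichment adds a pseudocount of 16 to the scaled ST18 count and to the input count, which pulls such windows towards 0. Beside it stands the fold, the ratio of a window's ST18 to input reads divided by that of all windows, with an exact 95% binomial interval that covers counting error only.

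Promoter sequence shows what kind of DNA lies at some of the higher and lower members. RefSeq sequence (build GRCm38.p6, another build than the mm9 named in the processing notes) was matched by symbol for 28 of the 39 genes. Wnt5a, the highest of the 39, Porcn, the third, and Dkk3, the lowest, were not among them. Shown are the 250 bases before the start for the 2 highest and the 2 lowest matched genes. Capitals mark CpG dinucleotides. The Dvl1 stretch is chr4:155847152-155847401 on the plus strand and that of Ctnnb1, the more upstream of 2 listed starts, chr9:120933150-120933399 on the plus strand. The Wnt3a stretch is chr11:59290752-59291001 and that of Wnt7a chr6:91411354-91411603, both on the minus strand.
Dvl1: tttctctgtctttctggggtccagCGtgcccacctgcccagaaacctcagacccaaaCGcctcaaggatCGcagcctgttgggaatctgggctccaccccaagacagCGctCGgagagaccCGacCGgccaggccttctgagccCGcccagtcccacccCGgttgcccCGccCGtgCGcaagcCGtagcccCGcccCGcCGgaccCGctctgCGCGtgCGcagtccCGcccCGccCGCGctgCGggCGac
Ctnnb1: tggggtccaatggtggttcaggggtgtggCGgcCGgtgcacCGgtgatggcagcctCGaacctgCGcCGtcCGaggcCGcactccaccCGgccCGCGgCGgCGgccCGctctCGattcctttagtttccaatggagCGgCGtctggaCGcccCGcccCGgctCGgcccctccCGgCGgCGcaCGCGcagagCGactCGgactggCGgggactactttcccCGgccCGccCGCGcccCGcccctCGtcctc
Wnt3a: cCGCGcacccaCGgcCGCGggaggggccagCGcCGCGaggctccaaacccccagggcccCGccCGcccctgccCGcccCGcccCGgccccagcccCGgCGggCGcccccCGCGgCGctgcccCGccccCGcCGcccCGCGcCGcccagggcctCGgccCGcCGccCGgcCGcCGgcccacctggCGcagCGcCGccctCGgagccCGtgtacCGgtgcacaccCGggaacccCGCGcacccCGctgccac
Wnt7a: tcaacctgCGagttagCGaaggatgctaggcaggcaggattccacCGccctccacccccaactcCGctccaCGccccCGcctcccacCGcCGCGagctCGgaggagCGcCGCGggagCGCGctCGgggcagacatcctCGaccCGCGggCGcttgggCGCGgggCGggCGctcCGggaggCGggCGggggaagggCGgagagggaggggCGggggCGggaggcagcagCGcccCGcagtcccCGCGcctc

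All 4 stretches were rich in G and C. Dvl1 had 71.2% GC and 26 CpG, Ctnnb1 had 74.8% and 35, Wnt3a had 87.6% and 41, and Wnt7a had 77.6% and 34. None of the 4 held the MYT1 family motif AAAGTTT, its core AAGTT or the TCF/LEF motif in the forms CTTTGAA or CTTTGAT, on either strand. Among the 28 matched genes AAAGTTT was found in 2 (7.14%), Wnt2 and Tcf7l1, against 4.20% of the 27025 RefSeq promoters of the same length. The core AAGTT, which AAAGTTT contains, was found in 7 of 28 (25%) against 35.7%. Either TCF/LEF form was found in 2 of 28 (7.14%), Wnt11 and Dkk1, against 7.69%. The 2 AAAGTTT matches are shown with up to 20 bases on each side, with the match, read on the opposite strand, in capitals. They lie 14 to 8 bases before the Wnt2 start (chr6:18030446-18030479, minus strand) and 31 to 25 bases before the Tcf7l1 start (chr6:72789050-72789096, minus strand).
Wnt2: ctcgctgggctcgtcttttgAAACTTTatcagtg
Tcf7l1: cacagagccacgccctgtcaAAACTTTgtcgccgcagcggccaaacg

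The Wnt2 window held 22 ST18 and 5 input reads, at a log2 enrichment of 0.25 (1.61-fold, 0.594 to 5.44). The Tcf7l1 window held 17 and 6 reads, at 0.06 (1.04-fold, 0.390 to 3.21). Both intervals included 1.

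The first comparison asked which Wnt pathway promoters stood out in ST18 reads relative to input, on the deposited scale and against the ratio of all windows. Of the 39, only Wnt5a reached a log2 enrichment of 0.58, against 1.15% of all windows. That is about a 1.49-fold change on the deposited scale, but a larger one in reads, since the pseudocount shrinks small counts. Dvl1, at 2.15-fold in reads, and Porcn, at 5.48-fold with 1 input read, fell short of it. None lay at or below −0.58, against 0.219% of all windows. No Wnt promoter passed a two-sided exact binomial test, adjusted for all 21881 windows, which called 0.0366% of windows higher and 0.00914% lower. At an unadjusted exact p under 0.05, 2 were higher, Wnt5a and Dvl1, against 2.37% of windows, and 0 were lower, against 3.24%. The test sets the reads of 1 column against those of the other and says nothing of conditions. The median log2 enrichment of the 39 was 0.08 (SD across genes 0.218), beside 0.04 (SD 0.225) over all windows. Of the 39, 23 lay above the median of all windows, against 49.6% of windows, and 20 lay within the interquartile range of all windows, with 12 above and 7 below it. Summed over the 39 promoters, 888 ST18 and 300 input reads gave 1.08-fold (0.948 to 1.24).

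**Figure D1:**
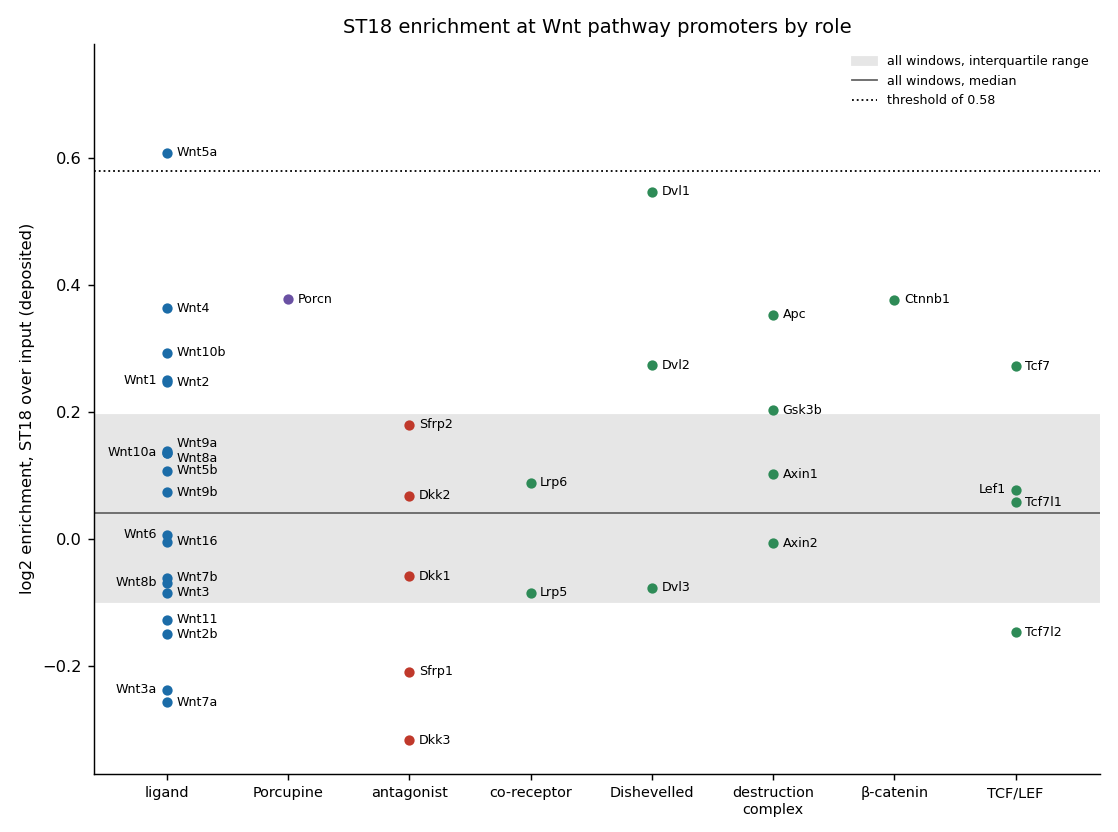
Deposited log2 enrichment (vertical axis) of the 39 promoters by role (horizontal axis), 1 point per gene, with the median (line) and interquartile range (grey band) of all windows and the 0.58 threshold (dotted). Wnt5a at 0.61 is the only point above the threshold, and Dkk3 at −0.32 is the lowest.

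**Figure D2:**
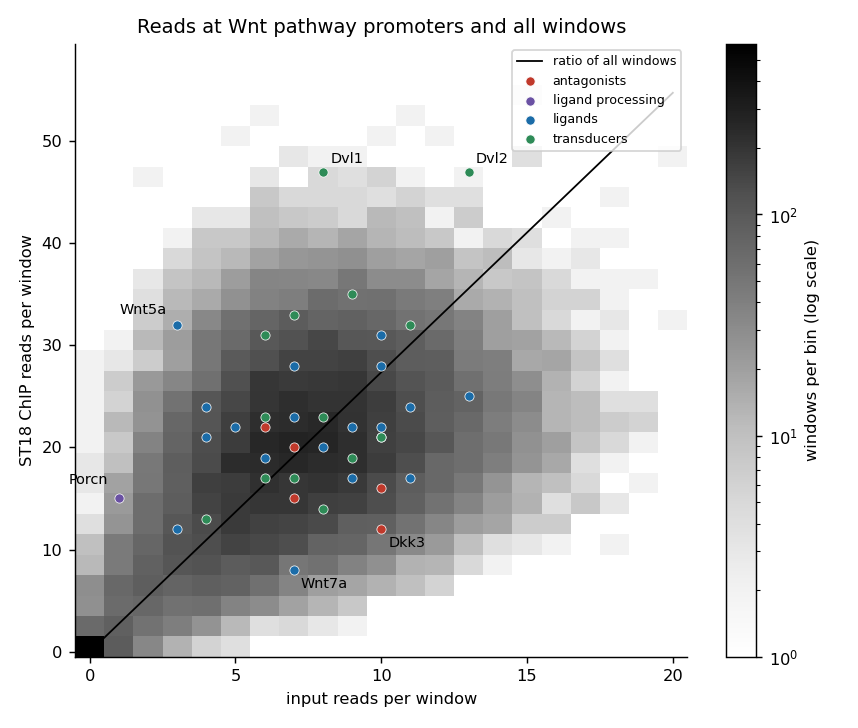
ST18 ChIP reads against input reads per window for the 39 genes (coloured by class) over 21827 of the 21881 windows (grey, log scale), with the ratio of all windows as a line. The remaining 54 windows lie outside the axes, Wnt3 and Lrp5 share 1 point, and the Wnt genes spread on both sides of the line.

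The input reads of a window set how many ST18 reads a higher call needed. At 7 input reads a window needed 80 ST18 reads, 4.18-fold, to pass the adjusted test. The most ST18 reads at any Wnt promoter were 47. A window of similar input could pass, as the Frizzled gene Fzd2 did with 89 ST18 and 8 input reads (exact test, adjusted p = 0.0373). A lower call needed at least 9 input reads, with 0 ST18 reads at 9 or 10, so no depletion of any size was detectable in the 23 Wnt windows with fewer input reads.

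Among the ligands, Wnt5a stood highest. The Wnt5a promoter carried 32 ST18 reads and 3 input reads, which places it at 0.61, or 3.90-fold the ratio of all windows (1.22 to 19.9), rank 188 of 21881 (exact test, p = 0.0152, adjusted p = 0.689). WNT5A is the ligand best known for signalling without β-catenin, through ROR receptors and planar cell polarity. The next ligand, Wnt4, a regulator of kidney and gonad development, held 24 against 4 reads, at 0.36 (2.19-fold, 0.753 to 8.70). Wnt10b held 21 against 4 reads, at 0.29 (1.92-fold, 0.647 to 7.69). Wnt1, a midbrain organiser ligand, held 28 against 7 reads (0.25). All these intervals except that of Wnt5a included 1.

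The lowest ligand was Wnt7a, a ligand of the neuroepithelium that also acts on brain vessels, with 8 ST18 against 7 input reads (−0.26, 0.418-fold, 0.132 to 1.35). Its ST18 count was the smallest of the 39. Wnt3a, the ligand of the cortical hem that is needed for hippocampus formation, came next with 17 against 11 reads (−0.24, 0.565-fold, 0.250 to 1.33). Wnt2b, also expressed in the hem, held 25 against 13 reads (−0.15, 0.703-fold, 0.346 to 1.50). Wnt11, which acts in cell movement, held 17 against 9 reads (−0.13). These promoters held as many input reads as the median window or more, and their intervals included 1.

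The remaining 10 ligands, Wnt2 apart, lay between −0.08 and 0.14. Wnt9a held 23 ST18 and 7 input reads (0.14), and Wnt10a, which acts in tooth and hair formation, 31 and 10 (0.14). Wnt8a, a ligand of the early embryo, held 12 and 3 (0.14), and Wnt5b 19 and 6 (0.11). Wnt9b, which acts in kidney tubule formation, held 28 and 10 (0.07). These 5 were above the median of all windows.

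The other 5 were below it. Wnt6 held 20 and 8 reads (0.0066), and Wnt16, which acts in bone, held 22 and 9 (−0.0045). Wnt7b, expressed in cortical neurons, held 22 and 10 (−0.06). Wnt8b, a marker of the cortical hem, held 24 and 11 (−0.07), and Wnt3 held 21 and 10 (−0.08). Over all 19 ligands 10 were above the median of all windows. The ligand median was 0.07, and their 416 ST18 and 147 input reads gave 1.03-fold (0.855 to 1.26). Without Wnt5a the other 18 gave 0.975-fold (0.803 to 1.19).

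Porcn encodes Porcupine, without which Wnt ligands are not released. Its promoter held 15 ST18 reads and 1 input read, the fewest input reads of the 39, at a log2 enrichment of 0.38. With 1 input read the fold was 5.48 with an interval of 0.843 to 231, so the window gives almost no bound on enrichment (exact test, p = 0.0937, adjusted p = 0.952).

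The 5 secreted antagonists act outside the cell: DKK1 and DKK2 bind LRP5 and LRP6, and SFRP proteins bind the ligands themselves. Sfrp2 was highest, with 22 ST18 and 6 input reads (0.18, 1.34-fold, 0.527 to 4.04), followed by Dkk2 with 20 and 7 (0.07). Dkk1, a head organiser gene, held 15 and 7 (−0.06), and Sfrp1, expressed in cortical progenitors, held 16 and 10 (−0.21). Dkk3, a divergent member of the Dickkopf family that is not known as a typical LRP-binding antagonist, was the lowest of all 39 with 12 and 10 reads (−0.32, 0.439-fold, 0.174 to 1.13; exact test, p = 0.0918, adjusted p = 0.952). Of the 5, 2 lay above the median of all windows. Their median was −0.06, and their 85 ST18 and 40 input reads gave 0.777-fold (0.527 to 1.16). Without Dkk3 the other 4 gave 0.889-fold (0.574 to 1.41). All 5 intervals included 1.

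The transducers begin at the membrane with the co-receptors. Lrp6, the main Wnt co-receptor of the embryo, held 13 ST18 and 4 input reads (0.09), and Lrp5, best known for its role in bone mass, held 21 and 10 (−0.08). Together they gave 0.888-fold (0.464 to 1.79).

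The Dishevelled genes encode the scaffold proteins that relay the receptor signal. Dvl1 held 47 ST18 and 8 input reads, at 0.55 the second in rank of the 39 and rank 359 of all windows (2.15-fold, 1.01 to 5.26; exact test, p = 0.0481, adjusted p = 0.882). Dvl2 held the same 47 ST18 reads but 13 input reads, at 0.27 (1.32-fold, 0.703 to 2.66). Dvl3 held 19 and 9, at −0.08 (0.772-fold, 0.333 to 1.94). Dvl1 and Dvl2 thus had the most ST18 reads of the 39, and Dvl2 shared the highest input count with Wnt2b. The 3 genes together gave 1.38-fold (0.914 to 2.13).

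Within the destruction complex, the scaffold gene Apc held 33 ST18 and 7 input reads (0.35, 1.72-fold, 0.750 to 4.62), and the kinase gene Gsk3b held 23 and 6 (0.20). The scaffold gene Axin1 held 32 and 11 (0.10). Axin2, a feedback target of the pathway in many tissues, held 17 and 7 (−0.0067, 0.888-fold, 0.350 to 2.53). The 4 together gave 1.24-fold (0.822 to 1.91).

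Ctnnb1, which encodes β-catenin itself, held 31 ST18 and 6 input reads, at 0.38 (1.89-fold, 0.776 to 5.54). Of the TCF/LEF factors that carry it to DNA, Tcf7 held 35 and 9 (0.27, 1.42-fold, 0.670 to 3.36) and Lef1 held 23 and 8 (0.08). Tcf7l1, which mostly represses, held 17 and 6, as given with its sequence. Tcf7l2 held 14 and 8, the lowest transducer at −0.15 (0.640-fold, 0.250 to 1.76). The 4 factors together gave 1.05-fold (0.690 to 1.63).

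**Figure D3:**
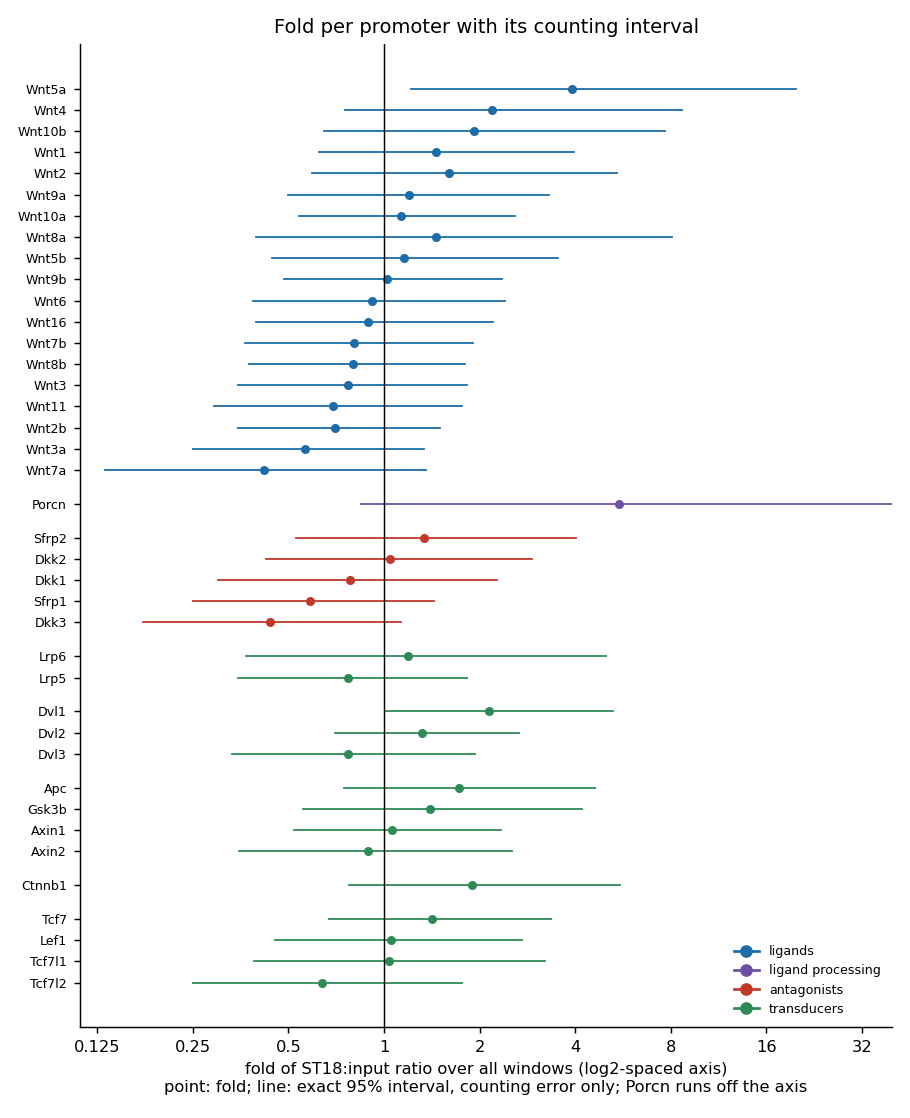
Fold of the ST18 to input ratio over all windows (horizontal axis, log scale) for each of the 39 promoters, grouped by role and coloured by class, with points for the fold and lines for the exact 95% interval. Of the 39 lines, 37 cross 1, and those of Wnt5a and Dvl1 lie above it.

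The second comparison set ligands, antagonists and transducers against each other. Transducers had the highest summed ratio, with 372 ST18 and 112 input reads over 14 promoters (1.21-fold, 0.980 to 1.51) and a median log2 enrichment of 0.10. Of these 14 genes 10 lay above the median of all windows. The ratio of ST18 to input reads was 1.17 times as high over transducers as over ligands (exact 95% interval 0.876 to 1.57). It was 1.33 times as high over ligands as over antagonists (0.850 to 2.06), and 1.56 times as high over transducers as over antagonists (0.986 to 2.45). All 3 intervals included 1, so no difference between classes was detectable, and the interval between transducers and antagonists leaves room for a ratio of up to 2.45. The antagonist class rests on 5 promoters, and without Dkk3 the last ratio was 1.36 (0.817 to 2.24).

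Some intervals that included 1 had a lower limit just above 1 under other choices. Without windows of 5 or fewer input reads, the transducers stood at 1.40 times the ligands (1.02 to 1.90). That filter takes out 5 of the 19 ligands, Wnt5a, Wnt4, Wnt10b, Wnt2 and Wnt8a, which are among the higher ones, and only Lrp6 of the transducers. It also lowers the ratio of all windows from 2.74 to 2.46. Against this lower reference the remaining 13 transducers, with 359 ST18 and 108 input reads, stood at 1.35-fold (1.09 to 1.69). Against the unfiltered 2.74 they stood at 1.21-fold (0.977 to 1.52), as the whole class did. The member with the most ST18 reads is Sfrp2 among the antagonists, and Dvl1 and Dvl2 tie among the transducers. Without Sfrp2 and Dvl1, transducers stood at 1.69 times the antagonists (1.02 to 2.76), and without Sfrp2 and Dvl2 at 1.77 times (1.06 to 2.91). These genes were picked by their ST18 reads, which enter the ratio, and Sfrp2 is also the highest antagonist by enrichment. Leaving it out takes the antagonists from 0.777-fold to 0.677-fold (0.439 to 1.06), a fall that is built in. Neither interval was therefore read as a class difference. Without both Dvl1 and Dvl2 the transducers stood at 1.12-fold (0.878 to 1.43) and 1.08 times the ligands (0.790 to 1.48).

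Closely related genes were compared next, in 16 pairs. In no pair did the exact 95% interval of the ratio exclude 1. The largest ratio was that of Wnt5a over Wnt5b, at 3.37 (0.618 to 22.8), followed by Dvl1 over Dvl3 at 2.78 (0.806 to 9.58). Dkk2 over Dkk3 gave 2.38 (0.613 to 9.46), Sfrp2 over Sfrp1 2.29 (0.596 to 9.26), and Wnt2 over Wnt2b 2.29 (0.627 to 9.44). The ratio was 1.93 for Wnt7b over Wnt7a (0.449 to 8.07), 1.55 for Lrp6 over Lrp5 (0.345 to 8.13) and 1.20 for Axin1 over Axin2 (0.328 to 4.14). In each pair the gene with the higher ratio was named first, so every ratio lay above 1. The intervals were wide, and differences of several fold between relatives were not resolved at these read counts.

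Neighbouring genes can share reads when their windows overlap. In the RefSeq annotation (GRCm38.p6), 9 of the 39 genes had a gene of the table within 1000 bases of their body. Wnt3 and Wnt9b are such neighbours of each other. Tas1r3, beside Dvl1, held 20 ST18 and 8 input reads (0.0066), against 47 and 8 for Dvl1. Ebp, beside Porcn, held 7 and 3. Fbxl14, beside Wnt5b, held 25 and 3 (0.46), against 19 and 6 for Wnt5b. Acadvl and Phf23, both beside Dvl2, held 27 against 12 reads and 11 against 10. Wnt5a had no such neighbour. Whether any of these windows overlap was not tested.

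The Wnt promoters were then set beside the Frizzled receptor promoters, the step of the pathway left out of the list. The 10 Frizzled promoters held 358 ST18 and 82 input reads, 1.60-fold (1.25 to 2.05), and their ratio was 1.47 times that of the 39 (exact 95% interval 1.12 to 1.96). Fzd1 and Fzd2, with 106 against 11 and 89 against 8 reads, are among the highest windows of the table, at 1.13 and 1.12, and were taken out for that reason in a further count. Without them the other 8 Frizzled genes gave 0.946-fold (0.703 to 1.29) and 0.874 times the ratio of the 39 (0.630 to 1.22). A fall was built into that choice, and the 39 kept their own highest windows, so the last ratio sets a trimmed group against a whole one. The median Frizzled log2 enrichment was 0.05, below the 0.08 of the 39. The 10 genes for Notch receptors, Notch ligands and Rbpj gave 1.29-fold (0.989 to 1.70) and 1.19 times the ratio of the 39 (0.883 to 1.62), with a median of 0.19.

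**Figure D4:**
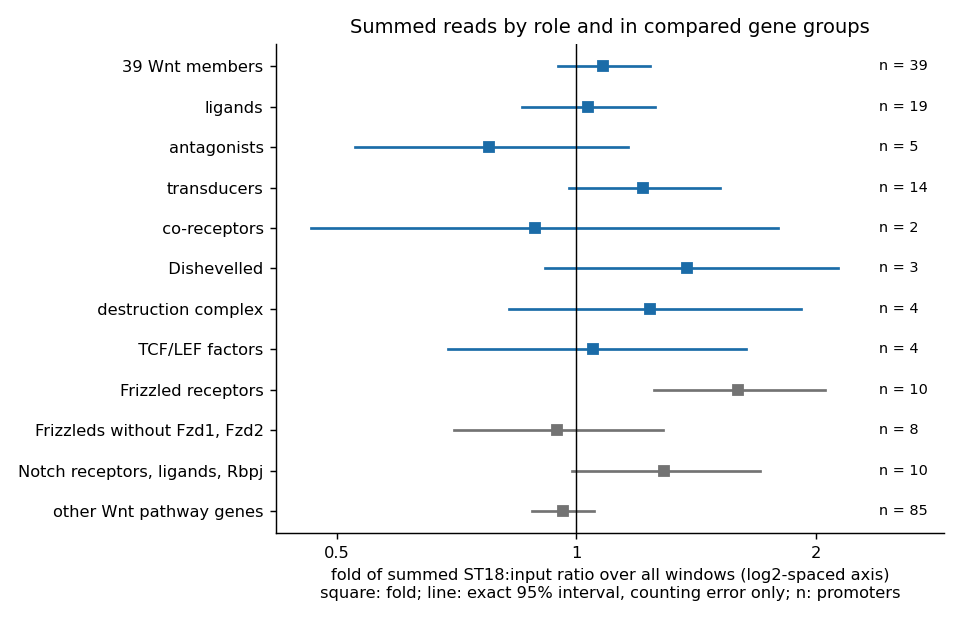
Fold of the summed ST18 to input ratio over all windows (horizontal axis, log scale) for the Wnt classes and roles (blue) and the compared groups (grey), as squares with exact 95% intervals and the number of promoters. The transducers lie at 1.21 and the antagonists at 0.777. The Frizzled group moves from 1.60 to 0.946 without Fzd1 and Fzd2, its highest genes.

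A further list by role had 86 entries, of which Amer1 and Fam123b name the same gene, and all 85 genes were tested. None reached 0.58 or −0.58, against 1.15% and 0.219% of all windows, and −0.58 was again out of reach for windows with few input reads. At an unadjusted exact p under 0.05 in either direction, 5 of the 85 passed, against 1227 of the 21881 windows. Their median was 0.04, and the 1784 ST18 and 678 input reads of the 85 gave 0.962-fold (0.880 to 1.05). That was 0.889 times the ratio of the 39 (0.756 to 1.04). The highest were Vangl2, a core planar polarity gene, with 31 and 4 reads (0.51), and Reck, a co-factor for WNT7 signalling in brain vessels, with 31 and 5 (0.44). The lowest were Tle2, a Groucho-type co-repressor of TCF factors, with 18 and 16 reads (−0.46), and Fam123b, which encodes the APC-binding protein WTX, with 12 and 12 (−0.42). By role, the 17 genes for alternative receptors and planar polarity gave 1.19-fold (0.959 to 1.47), and the 12 other antagonists gave 1.16-fold (0.910 to 1.49). Both intervals included 1, as did that of the 5 secreted antagonists above. The 13 nuclear cofactors gave 0.772-fold (0.621 to 0.964), the only one of these 7 roles whose interval excluded 1, without adjustment for the number of roles. Of the 13, 3 were lower at an unadjusted exact p under 0.05, against 3.24% of all windows. They were Tle2, Tle1 (16 and 14 reads) and Ctbp2 (17 and 14). The median log2 enrichment of the 13 was −0.0012, and a sum without those 3 was not made. The 9 common target genes gave 0.798-fold (0.599 to 1.07), with Neurod1 highest (23 and 4 reads, 0.34) and Myc lowest (9 and 8 reads, −0.29). Of the 9 R-spondin module genes 4, of the 22 cytoplasmic regulators 11 and of the 3 ligand secretion and modification genes 2 lay above the median of all windows. The Wnt ligand carrier gene Wls held 16 and 12 reads (−0.32, 0.487-fold, 0.216 to 1.13). The intervals of Wls and Porcn both included 1.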

How the data were processed

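The deposited table gives ST18 and input read counts per 1000 bp promoter window, as whole numbers made by the authors, and the authors' log2 enrichment. Per the submitters' processing notes the build was mm9 and Bowtie was among the tools, with no word on which tool made this table, on duplicate reads or on pooling. The deposited enrichment was rebuilt within 1e-06 for all 21881 windows by scaling ST18 counts by 0.4055, adding 16 to each column and taking the log2 ratio. Folds, Clopper-Pearson 95% intervals, exact conditional intervals of ratios between groups and a two-sided exact binomial test (double the smaller tail, Benjamini-Hochberg adjustment over all windows, 0.05) were computed with Python 3.11.15, scipy 1.17.1, pandas 2.3.3 and numpy 2.4.6, and tested on simulated data. Reads are not independent molecules, so intervals cover counting error only.

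The genes and lists were chosen with earlier results of these data known. Pairs of related genes, the neighbours and the 2 motif matches shown were chosen after the values were seen. All 39 genes are named, with folds for the highest and lowest overall and by class. Base composition was not compared, since promoter sequence matched 67.1% of windows and 71.8% of the 39, under the 80% set for it. The peak list was not used, since it carries no gene names and no annotation of its build was used here. Other pseudocounts, scaling, centring, thresholds, call rules, a filter on input reads and left-out genes were tried. Samples were grouped by title. With 1 ST18 column, limma and fits without a ChIP replicate were not run.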

Additional observations from a re-analysis of the deposited data

How the results depend on the processing

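The count of Wnt promoters at a log2 enrichment of at least 0.58 is 1 (Wnt5a) and depends on the scale. It became 3 of 39 with a pseudocount of 8 and 10 with a pseudocount of 1, where 6.98% and 24.1% of all windows pass. It became 0 when scaled to promoter totals (0.608% of all windows pass), centred on the median of all windows (0.782%), at a threshold of 1 (0.0548%), by the adjusted exact test (0.0366%) and on leaving out windows with 5 or fewer input reads (0.332% of those kept). It was 2 by the unadjusted exact test, a setting chosen after seeing the data. At or below −0.58 the count stayed 0, except 3 with a pseudocount of 1, where 13.1% of windows pass. These changes follow from how the settings are built. Each gene's value stayed within its counting interval under both other pseudocounts, the other scaling and centring. Those intervals span several fold, so this check was a weak one. The sign of 1 gene, Wnt6, changed under that scaling and under centring, and none under the pseudocounts. The ligand median became −0.03 without windows of 5 or fewer input reads, where the median of all windows was −0.0045, and the class medians otherwise kept their sign. With windows at 5 or fewer input reads left out, the summed ligand fold was 0.969 against the ratio of the windows kept (2.46) and 0.871 against that of all windows (2.74). Summed folds and class ratios stayed within their main intervals under every setting run, the settings without a named gene, the filter on members with the ratio of all windows kept and all those for class ratios being chosen after seeing the data. The setting for base composition was left out. No paired analysis was possible because the single ST18 column carries no replicate number, and for the same reason no replicate was left out. Depth is a limit: a median of 7 input reads per window leaves intervals of several fold for each gene.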
